A study of Sus scrofa with 63 samples.

Results

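Hepatic mRNA expression of HP offspring was compared between the stage of weaning, 28 dpn, and the fetal stage, 94 dpc, and the comparison covers all probe-sets of the array that are not controls. The groups were taken from the stage given in the labels, so 31 of the 63 arrays of HP offspring entered it, 15 of 28 dpn and 16 of 94 dpc. The 16 arrays of 1 dpn lie in between (dpc and dpn are days post conception and days post natum) and served to separate a net change, from the fetus to the weaning stage, from a change that was present at 1 dpn and gone at 28 dpn. Every array carried liver RNA of a German Landrace pig, and the mothers of all of these animals, the fetuses included, were gilts on a high protein diet during gestation. Arrays of AP offspring (adequate protein diet) were not analysed here, so no value below describes an effect of the diet.

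Age was not the only difference between the stages. The fetuses belonged to a separate experiment, were taken by Caesarean section, and were the smallest and the heaviest of their litters. The piglets of 1 dpn had been born after induced parturition, were the lightest and the heaviest of theirs and were killed by injection of an anaesthetic. The pigs of 28 dpn had been reared by foster sows fed the adequate protein diet, the males were castrated, and all were fasted overnight before electric stunning and bleeding. The animals were sib pairs balanced for sex, but the labels give neither the litter nor the sex, so p-values measure the spread between the animals of a stage. Litter mates were fitted as independent animals, so standard errors and p-values may be too small and confidence intervals too narrow. Effects of age, experiment, choice by weight, nutrition and way of killing cannot be told apart.

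The fetal liver is a blood-forming organ as well as a growing one: red and white cell precursors mature between hepatocytes that secrete alpha-fetoprotein and divide, while glucose comes from the mother. After birth, blood formation moves to the marrow, and hepatocytes take up the burning of milk fat, glucose production, the disposal of nitrogen and the conversion of bile acids, steroids and foreign compounds. The gut then delivers bacteria and food antigens through the portal vein, and Kupffer cells, the resident macrophages, and lymphocytes of the liver meet them first.

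Values were deposited as log2 signals after scaling each array to a trimmed mean of 500, and all changes below are differences of mean log2 signals, with the standard error (SE), so that a difference of 1 is 2-fold. Calls rest on limma, fitted to the arrays of 94 dpc, 1 dpn and 28 dpn, with p-values adjusted by Benjamini-Hochberg over all 23935 probe-sets and a threshold of 0.05. Of these probe-sets 13554 were expressed, which means that in 1 of these stages 50% or more of the arrays had them above the array median, and 10069 carried exactly 1 gene symbol. As background of an array stood the 95th percentile over 23 controls that have no target. It averaged 6.10 at 94 dpc, 5.83 at 1 dpn and 5.65 at 28 dpn, against array medians of 7.38, 7.23 and 6.83. For the RNAs spiked in ahead of labelling, 3′ probe-sets exceeded 5′ ones by 0.00765 to 0.258 at 94 dpc and by 0.716 to 1.91 at 28 dpn, with no overlap. At 1 dpn this difference was 0.576 to 1.22. In the sample's own RNA, actin had a 3′ excess of 1.84 to 4.30 at 94 dpc, 0.754 to 3.16 at 1 dpn and 3.15 to 4.02 at 28 dpn, on average 2.44, 1.59 and 3.66, so it too moved with the stage and was lowest at 1 dpn. GAPDH had a mean 3′ excess of 1.09 at 94 dpc, 0.54 at 1 dpn and 0.76 at 28 dpn. It was thus also lowest at 1 dpn, but lower at 28 dpn than at 94 dpc, unlike actin. The part of these differences in the results was not tested. At 28 dpn the arrays HP 38 to HP 45 had the higher of these differences, and 1 array of 94 dpc, HP 06, correlated least with the others of its stage (r = 0.899 over probe-sets) and had the highest actin value of it, 4.30. All 10 hepatocyte markers were above background on every array of both stages, and albumin (ALB) ranged from 15.68 to 16.25 at 94 dpc and from 15.19 to 16.25 at 28 dpn. In whole liver, fewer cells of a type and less RNA per cell cannot be told apart.

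Net changes were widespread. Of all probe-sets, 13961 (58.3%) differed between 28 dpn and 94 dpc, 4001 (16.7%) of them higher and 9960 (41.6%) lower at 28 dpn. Among the expressed probe-sets 10378 (76.6%) differed, with 3641 (26.9%) higher and 6737 (49.7%) lower. The balance of the directions depended on the scaling: the share of called expressed probe-sets that were higher was 35.1% in the deposited values, 49.2% with quantile normalization and 52.1% where each array was centred on its expressed probe-sets. The median net change over the 6765 genes on the array, each taken by its most intense probe-set, moved from −0.16 to 0.12 and 0.18. Medians of gene lists are therefore given with their distance from that of all genes, and where a named gene turns its sign under another scaling and passes the test in either, this is said beside it. Values near 0 that did not pass have no settled sign. Of the 6765 genes 29.3% were higher and 39.1% lower in the deposited values, and the net counts of every list stand against these shares. Net changes of at least 1 were found for 1432 expressed probe-sets that were higher (10.6%) and 3300 that were lower (24.3%). The signals of the 2 stages did not overlap for 3134 probe-sets (13.1% of all), 1175 of them higher (4.91%) and 1959 lower (8.18%).

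The arrays of 1 dpn divided these changes into 2 steps. A first step, from 94 dpc to 1 dpn, of at least 1 was found for 1641 expressed probe-sets (12.1%), 716 up and 925 down. Of these, 1065 (64.9%) showed a net change of at least 1 in the same direction. Another 3630 expressed probe-sets reached a net change of at least 1 without a first step of that size. Returns to the fetal level, with an interval of the net change within 0.5 of 0, were found for 53 probe-sets, and for 300 with a bound of 1 in its place. With part of the 28 dpn arrays left out, the 53 became 27 (without HP 38 to HP 45) or 35 (without the others). Of these, 23 and 33 were among the 53. Fewer arrays widen the intervals, so a lower count does not show that the returns rest on the arrays left out. Another 37 went past the fetal level to the other side. The plot of the first step against the net change shows these classes. Since both axes share the fetal arrays, a relation between them is no result in itself.

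**Figure D1:**
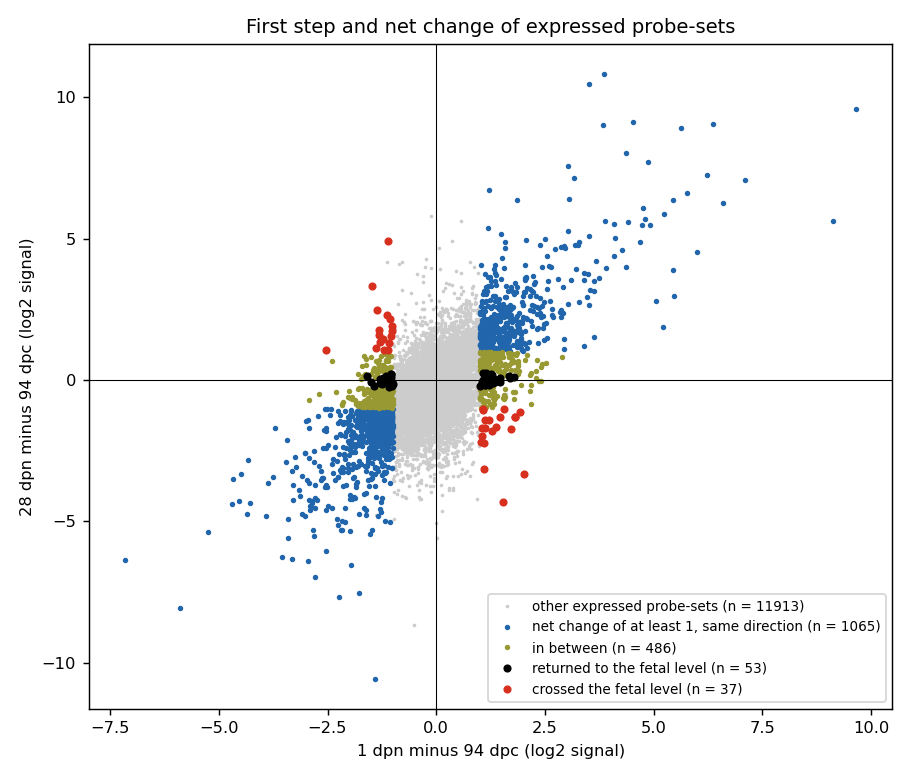
Net change (28 dpn minus 94 dpc, log2 signal, vertical) against the first step (1 dpn minus 94 dpc, log2 signal, horizontal), with 1 point for each of the 13554 expressed probe-sets. Blue points (n = 1065) kept a first step of at least 1 as a net change of at least 1, black points (n = 53) had returned to the fetal level at 28 dpn, and red points (n = 37) had crossed it.

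Alpha-fetoprotein and PEG10 had the deepest falls among the non-overlapping genes measured at both stages. Alpha-fetoprotein (AFP), the main plasma protein of the fetus, ranged from 15.68 over a median of 16.01 to 16.21 at 94 dpc, from 15.15 over 15.44 to 15.87 at 1 dpn, and from 6.28 over 7.32 to 8.50 at 28 dpn. The fetal and neonatal livers thus stood near the top of the scale, and the weaned livers just above background. The net change was −8.65 (SE 0.14, adjusted p = 5.81e-42, limma), a 403-fold difference, of which the first step held −0.51. The highest signal on the arrays of 94 dpc and 28 dpn was 16.61. Whether signals this high still follow the amount of RNA was not tested, so the size of the first step is uncertain. PEG10, an imprinted gene of retroviral origin, had a median of 15.34 at 94 dpc (15.07 to 15.51) and of 7.73 at 28 dpn (6.13 to 8.44), and fell by 7.67 (SE 0.48). At 1 dpn its median was 13.87, with 1 array at the level of weaned livers (6.26), 1 at 9.31 and the highest at 14.85. A second PEG10 probe-set went from a median of 11.52 to background on all but 1 array of 28 dpn.

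IGF2, the insulin-like growth factor of fetal life, likewise changed mostly after 1 dpn. Its probe-set with the largest net change ranged from 12.81 to 13.85 (median 13.43) at 94 dpc, from 11.09 to 12.90 (12.49) at 1 dpn and from 6.31 to 9.41 (8.77) at 28 dpn, and fell by 4.92 (SE 0.22), with a first step of −0.97. The most intense IGF2 probe-set fell by 4.13 (SE 0.12). PEG3, another imprinted gene, had a median of 9.54 (8.87 to 10.30) at 94 dpc and was above background on 2 of the 15 arrays of 28 dpn. PLAGL1, an imprinted zinc finger regulator, fell by 2.39 (SE 0.22), and GPC3, a proteoglycan that restrains growth, by 1.08 (SE 0.19). Of the 8 genes of this list on the array 6 fell and 1 rose, while 68.4% of all 6765 genes differed (39.1% lower, 29.3% higher). The median was −3.26 (−3.09 relative to all genes). SPINT2, a protease inhibitor, rose by 1.03 (SE 0.19), and NNAT, with 0.34 (SE 0.33), did not pass. Signals did not overlap between the stages for 5 of the 8 genes, against 13.1% of all probe-sets, expressed or not. Of the 10069 probe-sets with 1 symbol, 1806 were called and did not overlap.

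**Figure D2:**
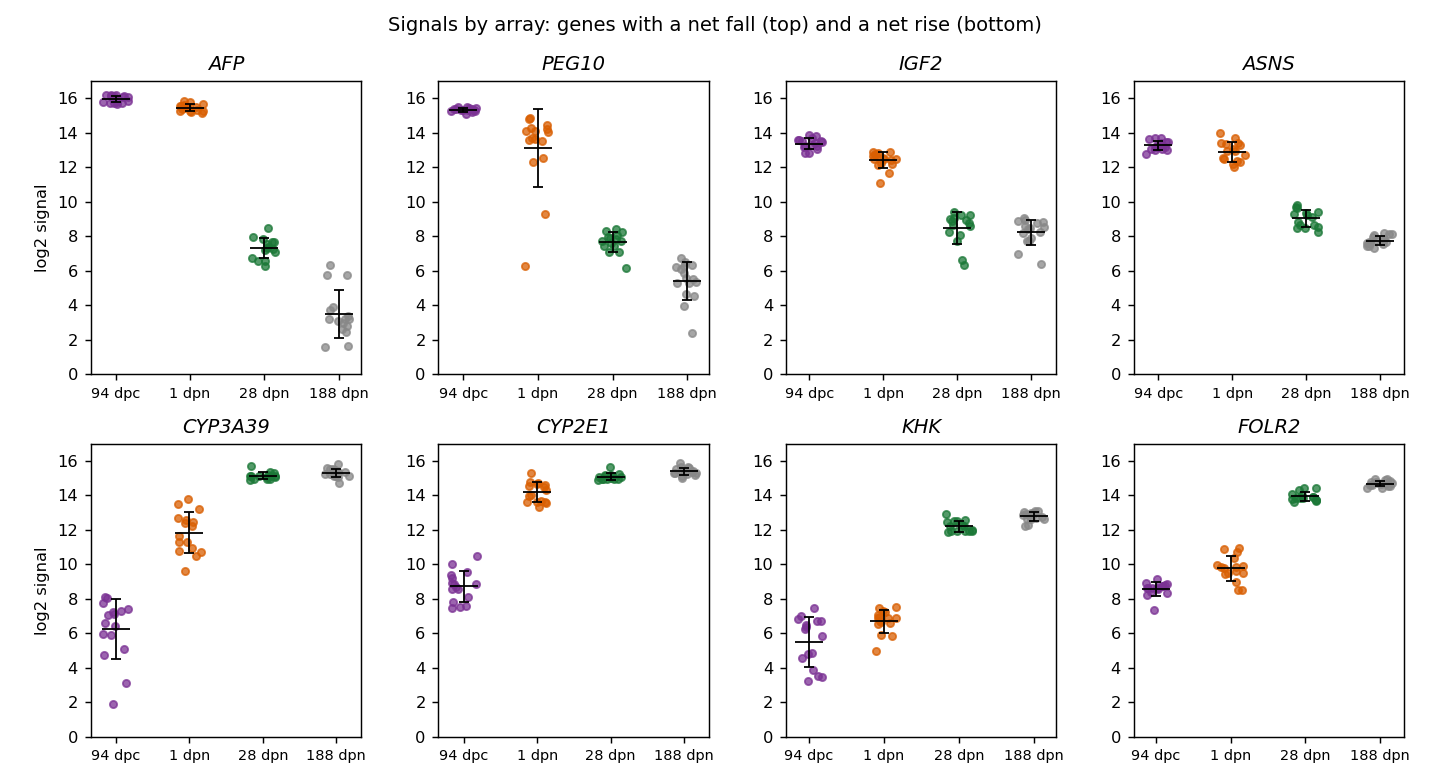
Log2 signal on each array at 94 dpc, 1 dpn, 28 dpn and 188 dpn (16, 16, 15 and 16 arrays), with the mean and SD as bars, for AFP, PEG10, IGF2 and ASNS (top) and CYP3A39, CYP2E1, KHK and FOLR2 (bottom). In every panel the arrays of 28 dpn lie clear of those of 94 dpc, and AFP and ASNS at 1 dpn still lie near the fetal level.

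Red cell precursor genes fell as well, but mostly before 1 dpn. Of the 12 on the array 11 were lower at 28 dpn, none was higher, and the median was −1.56 (−1.40 relative to all genes). All 12 were already lower at 1 dpn, where 47.9% of all genes differed (22.5% higher, 25.4% lower). Between 1 dpn and 28 dpn 4 of them rose and 3 fell, while 60.2% of all genes differed (26.8% higher, 33.4% lower). RHCE, a blood group antigen of the red cell membrane, ranged from 10.52 to 12.30 (median 11.73) at 94 dpc, from 2.75 to 7.55 (6.81) at 1 dpn and from 5.38 to 7.38 (6.21) at 28 dpn, with a net change of −5.39 (SE 0.29) and a first step of −5.25. KLF1, the transcription factor of the erythroid lineage, fell by 3.70 (SE 0.28). AHSP, which keeps free alpha-globin stable, had medians of 12.95, 8.14 and 9.37 at the 3 stages, so its low point was at 1 dpn. HBM, a globin of the alpha family, showed the same dip with medians of 12.36, 8.77 and 10.41 and a net change of −1.70 (SE 0.17). The summed linear signal of the list ran from 24115 to 52523 at 94 dpc and from 6984 to 19010 at 28 dpn. HBE1 (−0.37, SE 0.29) did not pass. TFRC, the transferrin receptor, had medians of 8.77 (6.81 to 9.78) at 94 dpc and 6.83 at 1 dpn. It was above background on no array of 28 dpn, at least 8.22-fold lower than at 94 dpc, so part of its fall came after 1 dpn.

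Genes of neutrophils and their precursors were lower too. Of 10 on the array 8 fell and none rose. The median was −2.20 (−2.03 relative to all genes), and the summed signal fell from a range of 1688 to 21190 to a range of 561 to 3132. Of the 10, 1 did not overlap between the stages, near the 13.1% of all probe-sets. LTF, lactoferrin of the secondary granules, ranged from 8.19 to 11.79 at 94 dpc and from 4.24 to 7.97 at 28 dpn (net −3.53, SE 0.29). PRTN3, a protease of the primary granules, fell from a median of 8.39 to above background on 2 of 15 arrays, and S100A9, a calcium-binding protein of neutrophils, fell by 2.37 (SE 0.37). NPG4, a protegrin, which is an antimicrobial peptide of pig neutrophils, fell by 4.75 (SE 0.41) from a median of 14.19 to one of 9.63. BPI (−0.10, SE 0.30) and MMP9 (−0.64, SE 0.37) did not pass.

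The genes of cell division were lower at the weaning stage, and most of this came after 1 dpn. Of 29 genes 28 fell and none rose. Their median was −1.23 (−1.06 relative to all genes). In the first step 6 fell and 3 rose (25.4% and 22.5% of all genes), and in the second 24 fell (33.4% of all genes). CCNB1, the mitotic cyclin B1, ranged from 9.45 to 10.88 (median 10.21) at 94 dpc, from 6.33 to 11.39 (9.30) at 1 dpn and from 6.95 to 8.91 (7.77) at 28 dpn. Its net change was −2.31 (SE 0.37), and the newborn piglets spanned more than the range of both other stages. CENPF of the kinetochore fell by 2.40 (SE 0.33), HMGB2, a chromatin protein of dividing cells, by 2.31 (SE 0.21), TOP2A, topoisomerase II, by 2.21 (SE 0.38) and PCNA, the sliding clamp of DNA polymerase, by 1.24 (SE 0.22). STMN1 (−0.16, SE 0.27) did not pass and stood at 0.18 after centring. Blood cell precursors also divide, and how much of these falls belongs to them was not tested.

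Other large falls concerned lipid and amino acid enzymes and genes not typical of liver. ISYNA1, which makes inositol phosphate from glucose 6-phosphate, fell from a median of 15.23 (14.66 to 15.47) over 11.19 to 8.72 (8.37 to 9.96), a net change of −6.28 (SE 0.27). ACSL4, an acyl-CoA synthetase that prefers arachidonic acid, fell by 5.53 (SE 0.27), from a median of 14.03 to one of 8.31. ASNS, asparagine synthetase, ranged from 12.75 to 13.72 at 94 dpc and from 11.99 to 13.96 at 1 dpn, and only then dropped, to 8.26 to 9.79 (net −4.23, SE 0.17). PHGDH, the first enzyme of serine synthesis, fell by 2.70 (SE 0.19). DUSP9, a phosphatase of MAP kinases, fell by 4.82 (SE 0.21), BEX3 by 4.54 (SE 0.17), EMB (embigin, a partner of monocarboxylate transporters) by 4.31 (SE 0.30), MLLT3, a reader of acylated histones, by 4.24 (SE 0.31) and the unnamed locus LOC100519808 by 3.75 (SE 0.21). PSP-II, known as a seminal plasma protein, had a median of 12.35 (11.40 to 13.56) in fetal liver and was near background from 1 dpn on, with medians of 5.57 and 5.87 (net −6.36, SE 0.32).

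Several genes fell to background. S100G, the vitamin D-dependent calcium-binding protein calbindin-D9k, had medians of 14.98 (13.76 to 15.29) at 94 dpc and 13.77 (10.65 to 15.14) at 1 dpn, and at 28 dpn only 4 of 15 arrays were above background, the highest at 6.93. TNNI2, troponin I of fast skeletal muscle, had a median of 11.92 at 94 dpc and was above background on 1 array of 28 dpn. CELF4, an RNA-binding protein, was above background on all 16 fetal arrays and on none of 28 dpn, at least 8.29-fold lower. SLC2A5, the fructose transporter, went from a median of 9.03 (6.88 to 11.53) to above background on 3 of 15 arrays. A probe-set of EPRS, a transfer RNA synthetase, was above background on 7 of 15 arrays of 28 dpn, while its other probe-sets changed by −1.79 and −1.14, so the size of that fall rests on the probe-set.

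Genes for the conversion of drugs and steroids made up many of the largest rises. Of the 30 genes of the list 21 rose and 4 fell, against 29.3% and 39.1% of all genes. The median was 1.86 (2.02 relative to all genes). Signals of 15 did not overlap, against 13.1% of all probe-sets. After centring 25 rose and 1 fell. CYP2E1, which oxidises ethanol and acetone, ranged from 7.48 to 10.49 (median 8.78) at 94 dpc, from 13.33 to 15.30 (14.15) at 1 dpn and from 14.91 to 15.67 (15.07) at 28 dpn, a net change of 6.37 (SE 0.22), or 82.6-fold, of which 5.45 lay in the first step. CYP3A39, of the family that handles most drugs, rose by 8.91 (SE 0.44), from a median of 6.83 over 11.94 to 15.11, and 11 of the 16 fetal arrays were above background. CYP3A29 and CYP3A46 started at background, above it on 3 and 4 fetal arrays, and reached medians of 14.15 and 13.88. The CYP3A genes are near copies, and their probe-sets may share RNA. CYP2A19, which hydroxylates coumarin, changed mostly after 1 dpn: its medians were 6.60 (3.14 to 7.21), 6.88 (5.73 to 9.18) and 12.28 (9.18 to 13.77), a net change of 5.63 (SE 0.36) with a first step of 0.56. CYP2C49, by contrast, rose by 3.88 in the first step and 5.62 (SE 0.37) in all.

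Conjugating enzymes followed. SULT2A1, which sulfates steroids and bile acids, rose by 4.89 (SE 0.22), from a median of 9.23 (8.63 to 10.51) to one of 14.19 (13.98 to 14.60), and 4.68 of this was reached at 1 dpn. GSTA1, a glutathione transferase, went from a median of 10.85 to one of 14.89 (net 4.98, SE 0.56), with 1 fetal array at 5.01. SULT1E1, which inactivates estrogens, had medians of 6.15, 10.99 and 9.41, and was above background on 8 of 16 fetal arrays. FMO5 rose by 3.38 (SE 0.26) and FMO1 fell by 0.83 (SE 0.15), so flavin monooxygenases went both ways. GSTM3 fell by 0.95 (SE 0.29), and EPHX1 (0.27, SE 0.21) and ALDH1A1 (0.08, SE 0.14) did not pass.

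Genes of amino acid catabolism were mostly higher, and most of them were so at 1 dpn. Of 26 genes 18 were higher and 4 lower at 28 dpn, with a median of 1.01 (1.17 relative to all genes), and after centring 19 were higher and 1 lower. In the first step 17 rose and 1 fell (22.5% and 25.4% of all genes). In the second 7 rose and 7 fell, against 26.8% and 33.4% of all genes. GNMT, which disposes of excess methyl groups, rose from a median of 7.30 (4.96 to 8.06) over 12.03 to 12.71 (12.09 to 13.53), a net change of 5.49 (SE 0.26). HPD, of tyrosine breakdown, had medians of 5.23, 13.65 and 9.99 and was above background on 6 of 16 fetal arrays, so the size of its rise is uncertain. The second step was −3.51, from 1 dpn to 28 dpn, where all arrays were above background. ETNPPL, a phospho-lyase of phosphoethanolamine, rose from background (2 of 16 arrays above it) to medians of 10.60 at 1 dpn and 10.49 at 28 dpn. SDS, serine dehydratase, was above background on 2 fetal arrays and rose to a median of 8.48, and DDO, D-aspartate oxidase, was above background on no fetal array and on all 15 of 28 dpn, at least 2.08-fold higher.

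The urea cycle itself moved less. ASS1, argininosuccinate synthase, rose by 1.58 (SE 0.17), from a median of 12.99 to one of 14.62, ARG1 fell by 0.64 (SE 0.19) and OTC by 0.61 (SE 0.16), and CPS1, the entry enzyme, stood at 0.05 (SE 0.13) and did not pass. TAT, tyrosine aminotransferase, was lower by 1.31 (SE 0.26), with overlapping signals of 12.13 to 15.05 and 12.00 to 13.65.

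Fatty acid oxidation showed net rises of moderate size. Of 23 genes 16 rose and 3 fell, with a median of 0.75 (0.91 relative to all genes). In the first step 18 had risen, against 22.5% of all genes. CPT1A, the gate of fatty acids into mitochondria, ranged from 9.30 to 10.21 (median 9.79) at 94 dpc, from 10.45 to 13.01 (12.14) at 1 dpn and from 11.90 to 13.24 (12.73) at 28 dpn, and rose by 2.98 (SE 0.16). BDH1, which forms 3-hydroxybutyrate, rose by 2.26 (SE 0.12), ECI1 by 1.95 (SE 0.11), and the acyl-CoA dehydrogenases ACADS by 1.87 (SE 0.10) and ACADVL by 1.85 (SE 0.16). CPT2, the partner of CPT1A, fell by 1.74 (SE 0.37) and was above background on 8 of 15 arrays of 28 dpn. The pigs of 28 dpn had been fasted overnight, and its part in these rises cannot be told apart from age.

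In glucose metabolism 12 of 20 genes rose and 4 fell (median 0.37, 0.54 relative to all genes), and after centring 14 and 2. KHK, ketohexokinase, the first enzyme of fructose use, had medians of 6.04 (3.22 to 7.49) and 6.87 (4.97 to 7.53) at 94 dpc and 1 dpn, above background on 6 of the fetal arrays, and of 12.23 (11.87 to 12.92) at 28 dpn. The fructose transporter SLC2A5 had gone the other way. GPD1, which links glycerol to glycolysis, rose by 2.96 (SE 0.18), PCK1, the rate-setting enzyme of glucose production, by 1.77 (SE 0.27) and PC, pyruvate carboxylase, by 1.70 (SE 0.11). PPARGC1A, a coactivator of both pathways, fell by 1.32 (SE 0.22).

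In the list of lipogenesis and triglyceride handling 8 of 22 genes rose and 9 fell, near the shares of all genes (29.3% and 39.1%), and the median of −0.12 was near that of all genes. After quantile normalization 9 rose and 7 fell. SCD, which makes oleic acid, fell from a median of 14.86 (14.16 to 15.36) to 11.75 (9.85 to 14.71) at 1 dpn and 11.45 (10.86 to 12.01) at 28 dpn, a net change of −3.40 (SE 0.28). PNPLA3, a lipid droplet protein, fell by 3.32 (SE 0.38) and FASN, fatty acid synthase, by 1.41 (SE 0.25). AGPAT2, of triglyceride assembly, rose by 2.30 (SE 0.13) and ANGPTL4, a fasting-induced inhibitor of lipoprotein lipase, by 2.47 (SE 0.31), from above background on 9 fetal arrays.

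Of 12 genes of cholesterol synthesis 8 were lower and 1 was higher at 28 dpn (median −0.72, −0.55 relative to all genes). But the path ran through a low at 1 dpn. In the first step 11 fell (25.4% of all genes), and in the second 8 rose (26.8% of all genes). After centring 5 were lower and 2 higher. HMGCS1, which starts the pathway, fell from a median of 12.51 over 9.09 to 9.70 (net −2.77, SE 0.37). SQLE, squalene epoxidase, fell by 2.10 and rose again by 1.00. MSMO1 fell by 2.69 and rose by 2.17, and its net change of −0.52 (SE 0.34) did not pass. SREBF2, the regulator of the pathway, was higher by 1.06 (SE 0.13). For bile acids, 4 of 7 genes rose and 1 fell. CYP7A1, the rate-limiting enzyme of their synthesis, was above background on 5 of 16 fetal arrays and on all 15 of 28 dpn (medians 3.80 and 7.64), the uptake carrier SLC10A1 rose by 1.52 (SE 0.15), and the export pump ABCB11 fell by 2.37 (SE 0.20).

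Among secreted proteins, most genes of complement and coagulation were higher at 28 dpn. Of 30 genes 20 rose and 5 fell (29.3% and 39.1% of all genes), and after centring 23 rose and 2 fell. The median was 0.56 (0.72 relative to all genes). MBL2, mannose-binding lectin, which starts the lectin pathway, rose from above background on 3 of 16 arrays to a median of 11.36 (10.14 to 13.19). C4A rose by 4.78 (SE 0.20), from a median of 9.48 (8.68 to 12.09) to one of 14.50 (14.07 to 14.84), C2 by 4.74 (SE 0.26), C8G by 3.94 (SE 0.15) and C1R by 3.59 (SE 0.22). Of the clotting factors, F9 rose by 0.43 (SE 0.07) and the fibrinogen chain FGB stood at −0.40 (SE 0.08), which became 0.11 with quantile normalization.

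The acute phase list was divided, with 8 of 20 genes higher and 9 lower in the deposited values with 11 higher and 2 lower after quantile normalization, and with 10 higher and 4 lower after centring. CRP, C-reactive protein, had medians of 5.54 (3.06 to 6.72), 11.95 and 14.51 (13.13 to 15.45) and was above background on 7 fetal arrays. LRG1, a leucine-rich glycoprotein of plasma, rose by 5.69 (SE 0.20), from 6.01 to 9.04 up to 13.58 to 14.30. LBP, which binds bacterial lipopolysaccharide, rose by 2.61 (SE 0.29), with a first step of 2.44. Haptoglobin (HP, 0.04, SE 0.10) did not pass.

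Carriers and hepatocyte markers depended on the scaling. Of 19 apolipoproteins and carriers 4 rose and 12 fell, after quantile normalization 8 rose and 4 fell, and after centring 6 rose and 5 fell. The summed signal of the list had medians of 732877 at 94 dpc and 511113 at 28 dpn in the deposited values. ALB stood at −0.40 (SE 0.10) in the deposited values, 0.20 after quantile normalization and −0.05 after centring, and 8 of the 10 hepatocyte markers were lower as against 3 after quantile normalization and 4 after centring, so no direction is given for them. HNF4A, the hepatocyte transcription factor, was higher by 0.84 (SE 0.11) with no overlap. PON3, a lactonase of lipoproteins, rose from above background on 1 fetal array to a median of 11.43, and AZGP1, zinc-alpha-2-glycoprotein, rose by 5.50 (SE 0.21). APOA4, of milk fat transport, rose by 3.14 (SE 0.42), with a first step of 3.62.

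The hormone receptors and iron regulators that changed most were few. GHR, the growth hormone receptor, was above background on 1 of 16 fetal arrays (2.94 to 6.40, median 4.33), and on all later ones, with medians of 8.06 at 1 dpn and 8.60 at 28 dpn. Its ligand-dependent product IGF1 rose by 1.81 (SE 0.30), and IGFBP1, a binding protein, fell by 1.44 (SE 0.39). Of 15 genes of this axis 3 rose and 5 fell, but 5 and 4 after quantile normalization and 6 and 4 after centring. HAMP, hepcidin, which closes the export of iron into blood, ranged from 11.18 to 13.65 (median 12.51) at 94 dpc, from 9.92 to 14.96 (12.38) at 1 dpn and from 1.93 to 12.97 (6.46) at 28 dpn. The weaned pigs were the most uneven of the 3 stages, and 11 of 15 were above background (net −5.59, SE 0.68). Of 10 iron genes 2 rose and 4 fell (5 and 4 after quantile normalization, 4 and 3 after centring), with the heme carrier HPX at 1.57 (SE 0.09) and transferrin (TF) at −0.64 (SE 0.10).

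Most genes of the macrophage, T and NK cell, interferon and antigen presentation lists rose, most of them after 1 dpn. Of 14 macrophage markers 12 rose and none fell, against 29.3% and 39.1% of all genes (median 1.53, 1.70 relative to all genes). Their summed signal ranged from 8011 to 37613 at 94 dpc and from 28020 to 65293 at 1 dpn. At 28 dpn it ranged from 89577 to 115983. FOLR2, folate receptor beta of resident macrophages, ranged from 7.35 to 9.16 (median 8.63) at 94 dpc, from 8.50 to 10.93 (9.82) at 1 dpn and from 13.61 to 14.44 (13.87) at 28 dpn, a net change of 5.37 (SE 0.18). TYROBP, a signalling adaptor of myeloid cells, rose by 2.75 (SE 0.26), and VSIG4, a complement receptor of Kupffer cells, by 2.35 (SE 0.21). CD163, the scavenger receptor of hemoglobin, had risen by 1 dpn (net 1.26, SE 0.21), and MRC1 (−0.34, SE 0.19) and MARCO (0.03, SE 0.44) did not pass.

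T and NK cell markers rose between 1 dpn and 28 dpn. Of 16, of which 9 were expressed by the rule above, 10 were higher at 28 dpn and none lower (median 1.21, 1.37 relative to all genes). None had risen at 1 dpn, where 6 were lower and 10 did not pass (25.4% of all genes were lower). In the second step 12 rose, against 26.8% of all genes. Only GNLY, granulysin, did not overlap between 28 dpn and 94 dpc, against 13.1% of all probe-sets. CD8A, a co-receptor of cytotoxic T cells, rose by 1.81 (SE 0.38) from above background on 8 fetal arrays, and CD3D, of the T cell receptor complex, by 1.32 (SE 0.33), but CD3E of the same complex stood at 0.02 (SE 0.26) after −1.02 and 1.04 in the 2 steps. PRF1, perforin, was above background on no array of either stage. Of 5 B cell genes JCHAIN rose and the others did not pass. CCL19, a chemokine that draws lymphocytes, was above background on no fetal array and ranged from 9.30 to 11.15 at 28 dpn, at least 16.4-fold higher.

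Interferon response genes and antigen presentation rose with them. Of 19 interferon genes 16 rose and none fell (29.3% and 39.1% of all genes), with a median of 2.09 (2.26 relative to all genes). ISG15, a ubiquitin-like protein induced by interferon, ranged from 4.78 to 11.44 (median 8.12) at 94 dpc, from 7.63 to 11.32 (10.02) at 1 dpn and from 11.52 to 14.57 (13.23) at 28 dpn (net 4.88, SE 0.44), where at 188 dpn it lay between 9.92 and 11.47. MX1 rose by 3.70 (SE 0.40) and IRF7, above background on 4 fetal arrays, by 3.15 (SE 0.39), though both overlapped, since single fetal livers reached 11.32 and 8.75. The summed signal of the list at 94 dpc ran from 5802 over a median of 7399 to 37267. Of the 19 genes only 2 did not overlap between the stages, near the 13.1% of all probe-sets. Of 20 genes of antigen presentation 18 rose and 1 fell (median 1.84, 2.01 relative to all genes). In the second step 18 rose, against 26.8% of all genes. SLA-3, a class I gene of the pig MHC, rose by 3.15 (SE 0.20) and TAP1, which loads peptides, by 2.42 (SE 0.26). B2M, the shared light chain, fell by 0.79 (SE 0.09). The SLA genes resemble each other, and their probe-sets may share RNA.

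**Figure D3:**
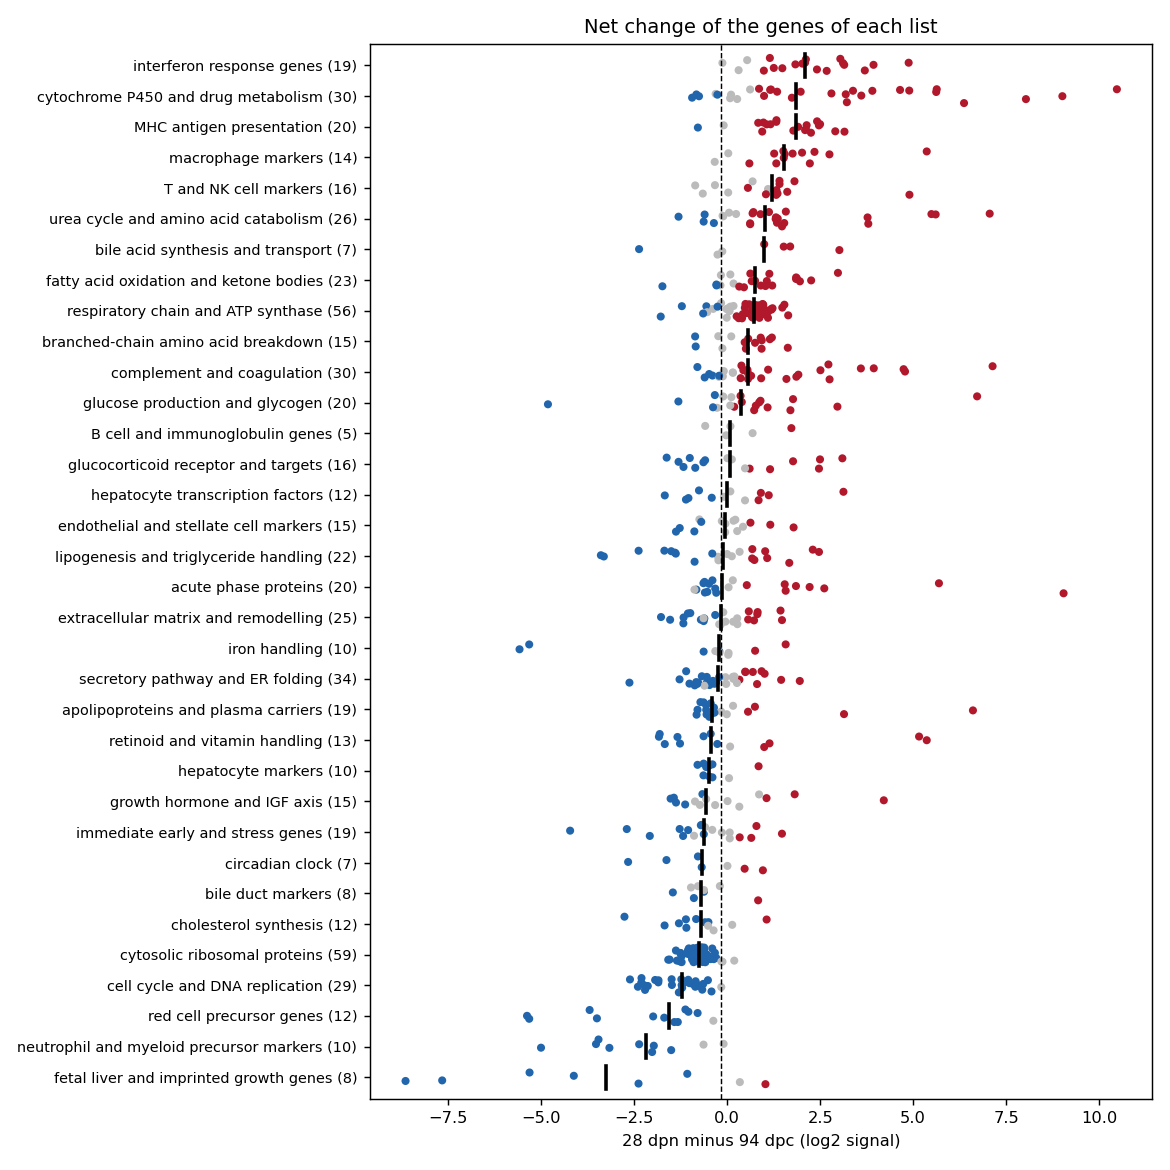
Net change (28 dpn minus 94 dpc, log2 signal) of the genes of 34 lists, 1 point per gene, red where higher and blue where lower at adjusted p under 0.05 and grey where not passed, with the number of genes on the array in brackets. Black bars are list medians and the dashed line is the median of all 6765 genes (−0.16), and the interferon list (2.09) and the fetal list (−3.26) stand at the ends.

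Genes of ribosomes were lower and most genes of the respiratory chain higher at 28 dpn. Of 59 cytosolic ribosomal proteins 56 were lower and none higher, with a median of −0.75 (−0.58 relative to all genes). Signals of 29 did not overlap, against 13.1% of all probe-sets. After quantile normalization 41 were lower and 5 higher, and after centring 48 and 3. RPL4 ranged from 15.13 to 15.68 at 94 dpc, from 14.11 to 14.92 at 1 dpn and from 13.46 to 13.97 at 28 dpn, a net change of −1.59 (SE 0.08), and RPL5 fell by 1.55 (SE 0.09). The list fell in the first step, with 56 lower (25.4% of all genes). In the second 17 fell and 7 rose (33.4% and 26.8% of all genes). Of 56 genes of the respiratory chain and ATP synthase 41 rose and 5 fell (median 0.72, 0.88 relative to all genes). By 1 dpn 40 had risen, against 22.5% of all genes. After quantile normalization 34 rose and 9 fell. NDUFB2, a subunit of complex I, rose by 1.64 (SE 0.12), while NDUFA1 (−1.79, SE 0.22) and NDUFA5 (−1.22, SE 0.16) of the same complex fell.

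Of 34 genes of the secretory pathway and ER folding 18 rose and 5 fell in the first step (22.5% and 25.4% of all genes). In the second 5 rose and 22 fell (26.8% and 33.4% of all genes). This left 9 higher and 17 lower at 28 dpn (median −0.26, −0.10 relative to all genes). After centring 15 were higher and 9 lower, so no direction is given for the list. PDIA4, a disulfide isomerase, kept its rise, with 11.29 to 12.05 at 94 dpc, 12.88 to 13.94 at 1 dpn and 13.26 to 14.08 at 28 dpn (net 1.95, SE 0.09). HSPA13, a chaperone of the HSP70 family, fell by 2.63 (SE 0.21), all of it after 1 dpn. HSPA5, the main chaperone of the ER, rose by 0.58, fell by 0.42 and had a net change of 0.16 (SE 0.09), which did not pass.

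Net changes were reached at different times. For every expressed probe-set with a net change of at least 1, the first step was divided by the net change. Of the 1432 that were higher, 226 (15.8%) had made it by 1 dpn (at least 75% of it, without overshooting by more than 25%), 657 (45.9%) made it in both steps, and 415 (29.0%) made under 25% of it by then. Of the 3300 that were lower, these were 320 (9.70%), 1338 (40.5%) and 1363 (41.3%). Another 84 and 219 had first moved the other way by more than 25% of the net change, and 50 and 60 had overshot at 1 dpn. No test was made of these shares, since the first step and the net change hold the same fetal arrays, and the counts depended on the scaling. Falls after 1 dpn were 704 after quantile normalization and 793 after centring, and rises after 1 dpn and in both steps were 713 and 1160 after centring. AFP, IGF2, ASNS and FOLR2 are examples of changes made mostly after 1 dpn, and RHCE, SULT2A1 and GNMT of changes made by then.

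**Figure D4:**
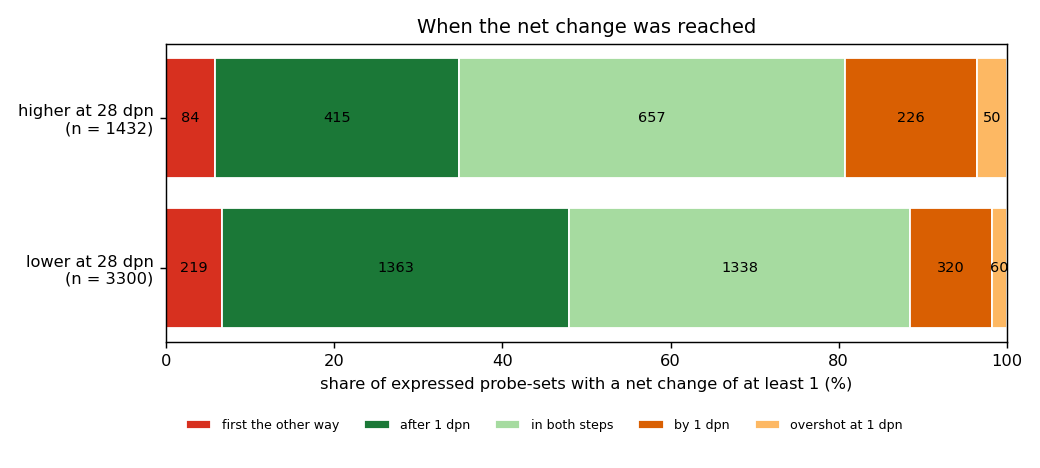
Share (%) of the expressed probe-sets with a net change of at least 1 that first moved the other way, changed after 1 dpn, changed in both steps, changed by 1 dpn or overshot at 1 dpn, with counts in the bars, for 1432 higher and 3300 lower probe-sets at 28 dpn. Changes made after 1 dpn are 29.0% of the rises and 41.3% of the falls.

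A return to the fetal level was called where the first step was at least 1 and the 95% confidence interval of the net change lay within −0.5 to 0.5. This held for 53 expressed probe-sets (0.391%), 27 that had risen and 26 that had fallen at 1 dpn. OAF had medians of 8.63 (7.28 to 9.15), 10.40 (9.20 to 11.01) and 8.65 (8.03 to 9.30), a first step of 1.80 and a net change of 0.09 (95% CI −0.24 to 0.42). Its net change stood at 0.43 both after quantile normalization and after centring. HSP90B1, the HSP90 of the ER, had medians of 12.44 (12.15 to 13.15), 13.71 (13.25 to 14.33) and 12.55 (12.11 to 13.32), a first step of 1.28 and a net change of 0.17 (95% CI −0.07 to 0.41). Every newborn value of both genes lay above the fetal range, and the medians at 28 dpn lay within it.

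In all, 27 probe-sets with 18 gene symbols returned after a rise, and 26 with 11 symbols after a fall. Next in size after a rise were TMED5, a cargo receptor between ER and Golgi (first step 1.69, net 0.08), LYPLA1, which removes palmitate from proteins (1.68, net 0.14), ABCD3, a fatty acid transporter of peroxisomes (1.46, net −0.06), CLDND1 (1.36, net −0.07), PDSS1 of coenzyme Q synthesis (1.33, net 0.03), FLAD1 of FAD synthesis (net 0.20), DNAJB9, a co-chaperone of the ER (1.24, net −0.08), and NDUFB3 of complex I (1.21, net 0.06). All 10 had net changes between −0.08 and 0.20 in the deposited values. For TMED5 and LYPLA1 they were 0.50 and 0.42 after quantile normalization and 0.42 and 0.49 after centring. The other symbols were UBE2M, PREB, PCK2, RAB3IP, ISOC1, ACADSB, UQCRB and CDC42EP5, with first steps up to 1.15, and UQCRB turned from −0.02 to 0.33 after centring. DNAJB9 had another probe-set that returned (net −0.10, 95% CI −0.40 to 0.20), while its most intense one rose by 1.14, stood at 0.26 (SE 0.14) and did not meet the rule.

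After a fall, ITM2C, a membrane protein, had medians of 11.92 (11.46 to 12.62), 10.33 (9.19 to 10.95) and 12.09 (11.75 to 12.43), a first step of −1.59 and a net change of 0.13 (95% CI −0.12 to 0.38). CNRIP1, which binds a cannabinoid receptor, had medians of 10.74, 9.25 and 10.76, a first step of −1.29 and a net change of 0.05 (95% CI −0.14 to 0.24). For both, no newborn liver reached the lowest fetal one. The porphyrin transporter ABCB6 (−1.18, net 0.00), ZDHHC14 (−1.15, net 0.09), AMOTL1 (−1.13, net −0.07, but 0.32 with quantile normalization), RGS10 (−1.09, net −0.03), NISCH (−1.08, net −0.25), PIR (−1.05, net 0.15), GTF2H4 (−1.04, net −0.10), CHST14 (−1.03, net 0.10) and PDGFRB (−1.01, net −0.06, but 0.29 after centring) followed. NISCH was called lower at 28 dpn all the same, at adjusted p = 0.0201 (limma), and stood at 0.094 after centring.

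Which probe-sets met this rule depended on the scaling. Quantile normalization gave 76, of which 20 were among the 53, and centring gave 72, of which 7 were. Only 3 met it under all 3 scalings, those of CDC42EP5 and PCK2 and 1 without a symbol. With a bound of 1 in place of 0.5, set after the data were seen, 156 probe-sets had an interval within it under all 3 scalings, 68 after a rise and 88 after a fall, with 85 gene symbols. DHRS4, a carbonyl reductase, was among them, with medians of 10.58 (9.99 to 11.23), 13.02 (11.50 to 14.00) and 10.44 (9.93 to 11.36) and a net change of −0.18 that stood at 0.17 after centring. BUD23, a ribosomal RNA methyltransferase, had medians of 8.88, 10.77 and 8.90. SFRP1, a Wnt inhibitor, with first steps of −1.80 and −1.46 on its probe-sets, MDK, the growth factor midkine (−1.79), and HSD17B2, which inactivates sex steroids (−1.59 and −1.23), were among those that had fallen. Of the 34 genes of the secretory pathway 4 (11.8%) had such a probe-set, DNAJB9, DNAJC3, HSP90B1 and SEC61A1, against 1.26% of all genes on the array. These shares are not alike. A return needs a first step, and 18 of the 34 rose in it, against 22.5% of all genes. The 1.26% also covers genes that were not expressed, so no enrichment is read from it.

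The fetal level was crossed by 37 probe-sets (0.273% of the expressed), 20 that had risen by at least 1 and ended at least 1 lower, and 17 with the opposite path. Of these, 22 did so under all 3 scalings, which was counted after the data were seen. Only 16 of the 37 were above background on at least 50% of the arrays of all 3 stages, 10 that ended lower and 6 that ended higher. For the others, at least 1 step rests on signals near background. PLIN2, the coat protein of lipid droplets, had medians of 11.89 (11.20 to 12.37), 13.05 (11.40 to 14.06) and 10.23 (8.72 to 11.60), a first step of 1.11 and a net change of −1.69 (SE 0.22). GART, of purine synthesis, had medians of 7.57, 9.02 and 3.10, and its probe-set was above background on no array of 28 dpn, at least 3.50-fold lower, while its other probe-sets changed by −2.35 and −0.97. HM13, a signal peptide peptidase, had medians of 10.36, 11.69 and 9.00, with no overlap between 28 dpn and either of the earlier stages (net −1.43, SE 0.12).

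TRAM1 of ER translocation (first step 1.06, net −1.68) was also measured at all stages, and its other probe-sets were lower by 0.84 to 1.12. The other crossings downward named by the rule ended near background. For ABCB1, an efflux pump, no array of 28 dpn was above background, at least 2.46-fold lower. GFPT1 of hexosamine synthesis was above it on 4 of 15 arrays of 28 dpn, BAG6 and SLC23A1, a vitamin C transporter, on 2, RAB27B of vesicle transport on 6 and ALCAM, an adhesion molecule, on 5. With signals under background raised to it, the net changes of BAG6, RAB27B and ALCAM were −0.94, −0.89 and −0.85, short of the 1 that the rule asks for. The other probe-sets of BAG6, at 0.68 and 0.02, did not share its fall. All 10 downward crossings named here met the rule under all 3 scalings.

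Upward, GNLY had medians of 5.07 (3.28 to 7.74), 3.70 (3.19 to 5.69) and 9.93 (8.51 to 10.86), above background on 3 arrays, none and all 15, and its net change was 4.90 (SE 0.30). SLA-DRA, a class II gene of the MHC, had medians of 10.72 (8.32 to 11.67), 9.43 (8.15 to 11.04) and 12.48 (11.64 to 13.14), a first step of −1.02 and a net change of 1.90 (SE 0.26). CXCL9, a chemokine induced by interferon (net 1.54), and JCHAIN, which joins immunoglobulin chains (1.72, SE 0.27), took the same path. S100A4, a calcium-binding protein of motile cells, was above background on 9, 5 and all 15 arrays of the 3 stages and LPCAT4, of phospholipid remodelling, on 5, none and 13. The first steps of these 4 and of GNLY and SLA-DRA lay between −1.10 and −1.01, and none of the 6 crossed under all 3 scalings. TSKU, a secreted protein of liver (−1.12, net 1.06), crossed under all 3 and was above background on every array. LOC100621559, C1H15orf48 and HSD3B1, of steroid synthesis, also crossed under all 3, but were above background on 5, 9 and 7 of the 16 fetal arrays and on 2, 6 and 3 of those of 1 dpn, so their dip was not measured. With signals under background raised to it, the net rises of HSD3B1 and LPCAT4 were 0.52 and 0.41, short of 1. The first steps of GNLY, S100A4 and LPCAT4 were then −0.47, −0.51 and −0.54, so their dip was not measured either.

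**Figure D5:**
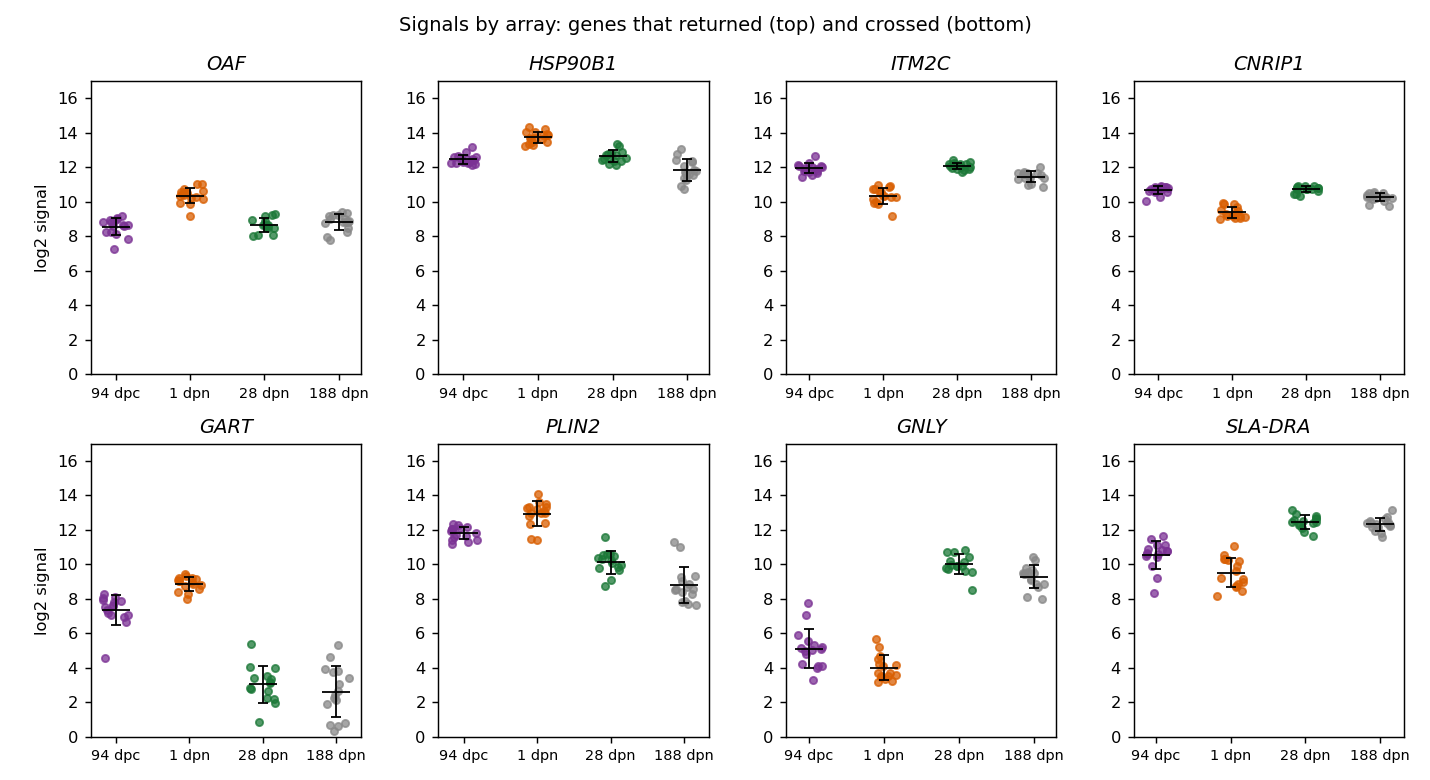
Log2 signal on each array at 94 dpc, 1 dpn, 28 dpn and 188 dpn (16, 16, 15 and 16 arrays), with mean and SD as bars, for OAF, HSP90B1, ITM2C and CNRIP1, which returned to the fetal level in the deposited values (top), and for GART, PLIN2, GNLY and SLA-DRA, which crossed it (bottom). The medians of OAF were 8.63, 10.40 and 8.65 and those of PLIN2 11.89, 13.05 and 10.23 at the first 3 stages. The crossings of GNLY and SLA-DRA were not called under every scaling. GNLY was above background on 3 arrays of 94 dpc and on none of 1 dpn, so its dip was not measured.

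The largest class apart from the kept changes lay in between. Of the 1641 probe-sets with a first step of at least 1, 486 neither kept a net change of at least 1 nor met the rule of a return. Of these, 328 still differed from the fetal level, 282 of them on the side of the first step and 46 on the other, and 158 did not pass but had an interval too wide to count as a return. The mean 3′ excess of actin and that of GAPDH were likewise lowest at 1 dpn, and their part in the returns was not tested.

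Single probe-sets did not always speak for their gene. Of 950 genes with at least 2 called expressed probe-sets 174 had called changes in opposite directions. One probe-set of EF1ALPHA, an elongation factor, rose by 4.91 (SE 0.16), from a median of 9.22 to one of 14.18, while 5 of the other 6 had negative changes, down to −1.86. The rise of HOPX, a homeodomain protein without DNA binding (5.27, SE 0.23), and the other largest rises and falls rest on the probe-set with the largest change. Genes named only from a list rest on their most intense one. In all, 1806 called probe-sets with 1 symbol did not overlap between the stages: 799 were higher and 898 lower with signals above background at both stages, 42 rose from background, 65 fell to it, and 2 were near background at both.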

How the data were processed

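Liver RNA had been hybridised to Affymetrix porcine arrays of 24123 probe-sets. The deposited values are log2 signals from GCOS 1.1.1, which the authors had scaled by array to a mean of 500 without the 2% at either end, with linear signals under 1 set to 1. No further normalization between arrays was applied, and the normalization, detection filter and mixed model of the paper are not in the values. The number of arrays and the distance from background limit the precision. After 188 controls were left out, 10069 probe-sets had 1 symbol in the platform annotation, 198 several and 13668 none. The latter were tested but not named.

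A mean for each of 94 dpc, 1 dpn and 28 dpn (47 arrays) was fitted with limma 3.58.1 in R 4.3.3 (lmFit, eBayes, two-sided). Tables were handled in Python 3.11.15 with pandas 2.3.3 and figures drawn with matplotlib 3.10.9. The procedure was tested on simulated data. Named genes were the 15 largest rises and falls without overlap and above background on at least 50% of the arrays of both stages, up to 8 each way from or to background, the 10 largest returns and crossings each way, and members of 34 gene lists (621 genes on the array) with the largest changes or as markers. A few of the others were chosen after their values were seen. The members and the lists were chosen with earlier results of these data known. For a list, each gene was taken by its probe-set of the highest mean. Alternatives were quantile normalization, centring, other filters, samples, priors, thresholds and bounds, array weights, arrays left out, and averaging a gene over its probe-sets.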

Additional observations from a re-analysis of the deposited data

How the results depend on the processing

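No paired analysis was possible because the labels give neither replicate numbers nor sib pairs. The alternatives with 28 dpn arrays left out, those over all 3 scalings at once and centring for the lists were added after the data were seen. Quantile normalization gave 6085 higher and 6306 lower probe-sets (4001 and 9960 in the deposited values), 2052 expressed ones lower by at least 1 (3300), and 704 falls after 1 dpn and 816 in both steps (1363 and 1338). Centring gave 2355 and 2032 higher and lower by at least 1 (1432 and 3300), 713 rises after 1 dpn and 1160 in both steps (415 and 657), and 793 and 777 falls. A level filter at the 75th percentile left 3318 expressed and lower (6737), 1501 of them by at least 1, 17 crossings (37), 142 rises by 1 dpn (226), and 530, 657 and 177 falls after 1 dpn, in both steps and by 1 dpn. It counts over fewer probe-sets of the same fit. With a threshold of at least 1 besides the p, 7480 of 13961 probe-sets passed, 1702 higher and 5778 lower. The 53 returns became 27 without arrays HP 38 to HP 45, 35 without the other 28 dpn arrays, 7 within 0.3, 300 within 1, and 156 within 1 under all 3 scalings, and 22 crossings were common to all 3. Leaving arrays out also widens the intervals. Quantile normalization turned the signs of AMOTL1 (0.32, from −0.07), FGB (0.11, from −0.40) and ALB (0.20, from −0.40), and centring those of NISCH (0.094, from −0.25), PDGFRB (0.29, from −0.06), UQCRB (0.33, from −0.02) and a second LYPLA1 probe-set (0.31, from −0.03). The cause was not tested. Of 230 named probe-sets 209 stayed on their side of the threshold with no called change turning sign under the former and 196 under the latter, and at least 221 of those compared did so under each of the other settings.

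Counts of lists changed with the scaling (count in the deposited values in brackets). With quantile normalization, higher were 2 (1) fetal, 5 (3) growth hormone, 5 (2) iron, 8 (4) carrier, 2 (1) B cell, 5 (3) endothelial, 5 (0) ribosomal and 2 (1) hepatocyte genes. Lower were 3 (5) complement, 2 (9) acute phase, 4 (12) carrier, 3 (5) transcription factor, 1 (0) B cell, 6 (10) matrix, 9 (5) respiratory, 5 (8) retinoid and 3 (8) hepatocyte genes. With centring, higher were 2 (1) cholesterol, 6 (3) growth hormone, 4 (2) iron, 3 (1) B cell, 8 (3) endothelial, 3 (0) ribosomal, 15 (9) secretory and 2 (1) hepatocyte genes, and lower were 1 (4) drug metabolism, 1 (4) amino acid, 1 (3) fatty acid, 5 (8) cholesterol, 2 (4) glucose, 4 (7) glucocorticoid, 2 (5) complement, 4 (9) acute phase, 5 (12) carrier, 3 (5) transcription factor, 2 (4) clock, 2 (4) endothelial, 9 (17) secretory, 5 (8) retinoid and 4 (8) hepatocyte genes. With the mean of all probe-sets of each gene, 0 fetal, 0 cholesterol, 2 transcription factor, 1 ribosomal and 2 hepatocyte genes were higher (1, 1, 4, 0 and 1), and 2 iron, 1 macrophage, 1 T and NK cell, 1 B cell and 7 endothelial genes were lower (4, 0, 0, 0 and 4). Without the 94 dpc arrays HP 06 and HP 13, 1 macrophage gene was lower. Without HP 38 to HP 45, 5 fatty acid (3), 2 glucose (4) and 2 endothelial (4) genes were lower and 1 clock (2) and 0 bile duct (1) genes higher, and without the other 28 dpn arrays 1 fatty acid gene was lower (3) and 1 clock gene higher (2). The other list counts stayed within 1.5 times under these 6 settings, the only ones run for lists.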

Other observations

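Further lists were described in the same way. Over all genes 29.3% were higher and 39.1% lower at 28 dpn, and a count near these shares is no result about its list. Of 15 genes of branched-chain amino acid breakdown 10 rose and 2 fell at 28 dpn (median 0.56, 0.73 relative to all genes), with HSD17B10, of isoleucine breakdown, at 1.63 (SE 0.10). Retinoid and vitamin genes went both ways, with 4 of 13 higher and 8 lower (5 and 5 after centring). CYP26A1, which degrades retinoic acid, exceeded background on 6 of the 16 fetal arrays (1.61 to 7.04) and on all 15 of 28 dpn (9.12 to 10.65). The retinoid receptors RXRA and RARB fell by 1.68 (SE 0.16) and 1.84 (SE 0.36), with RARB above background on 7 arrays of 28 dpn. Of 16 glucocorticoid genes 6 rose and 7 fell (8 and 4 after centring): HSD11B1, which regenerates cortisol, rose by 3.10 (SE 0.13) with medians of 12.07, 13.98 and 14.96 at 94 dpc, 1 dpn and 28 dpn, CEBPD rose by 2.49 (SE 0.16), and the receptor gene NR3C1 fell by 1.18 (SE 0.15).

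Of 19 immediate early and stress genes 4 rose and 9 fell (median −0.63), with MYC at −2.08 (SE 0.21) and HMOX1, heme oxygenase, at 1.47 (SE 0.14). FOS, JUN and EGR1 did not pass, with −0.89, −0.15 and −0.60. Of 7 clock genes ARNTL, a core activator of the clock, changed most (−2.67, SE 0.23), and the hour of sampling was not used here. Among 12 hepatocyte transcription factors 4 rose and 5 fell (5 and 3 after centring), near the shares of all genes. ATF5 rose by 3.12 (SE 0.23). Of 15 endothelial and stellate cell markers 3 rose and 4 fell, but 8 and 2 after centring. CDH5, the cadherin of endothelium, rose by 1.78 (SE 0.19), while the receptors FLT1 and KDR fell by 1.38 (SE 0.26) and 1.28 (SE 0.31). The summed signal of this list was 8144 to 21120 at 94 dpc and 17550 to 26635 at 28 dpn. Of 25 matrix genes 7 rose and 10 fell (9 and 6 after quantile normalization), near the shares of all genes (29.3% and 39.1%). The laminin chain LAMB1 stood at −1.78 (SE 0.13) and the collagen COL6A3 at 1.47 (SE 0.16). Of 8 bile duct markers 3 fell and 1 rose, CFTR and SOX9 were above background on no array of 28 dpn, and AQP1, a water channel, had medians of 11.64, 8.63 and 10.04. The B cell list had summed signals of 7994 to 15428 at 94 dpc and 10790 to 14492 at 28 dpn.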
